A study of Mus musculus with 6 samples.

Results

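The interferon regulatory factor (IRF) family was examined in microglia sorted from mice with and without overexpression of PGC-1α. Probes were taken as members when their transcript accession belonged to Irf1, Irf2, Irf3, Irf4, Irf5, Irf7, Irf8 or Irf9. This gave 14 of the 56605 non-control probes, for 8 of the 23462 genes that could be named. Of these 14 probes, 13 passed the filter on dim signals and were tested. Among the 8 genes, Irf7 stood apart with a signal 2.11-fold higher in mPGC-1α microglia on its brightest probe (log2 difference 1.08, SE 0.18, n = 3 per group). The adjusted p of Irf7 was 0.0970 by limma, which missed the threshold of 0.05. The other 7 genes had log2 differences between -0.30 and 0.19.

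IRFs are transcription factors that bind GAAA-containing DNA elements through a shared DNA-binding domain and turn on interferons and the genes that interferons induce. IRF3 and IRF7 are activated by kinases downstream of nucleic acid sensors, IRF9 is the DNA-binding part of the complex ISGF3 that carries the type I interferon signal to DNA, and IRF1 and IRF2 compete for the same sites. In microglia, the resident macrophages of the brain, IRF8 is a lineage factor that acts beside PU.1, and IRF5 is linked to the activated state.

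The arrays compared PGC-1αf/f microglia (n = 3) with mPGC-1α microglia (n = 3), all labelled male and aged 10 weeks. The PGC-1αf/f animals carried a Cre-dependent PGC-1α cassette tagged with eGFP but no Cre, and were littermates of the other group. The mPGC-1α animals carried the same cassette together with Cx3cr1-Cre/ER, a tamoxifen-inducible Cre placed in the locus of the fractalkine receptor Cx3cr1, which other myeloid cells also express. The methods describe tamoxifen dosing and an interval before experiments, without stating the dosing of the array mice separately. Cells were collected from brain with antibody-coupled beads against the microglial receptor P2RY12. Nothing in the labels says whether a sample came from 1 animal or a pool, so p-values measure only the spread between these samples, which may be technical. In such bulk RNA, fewer cells of a type and less RNA per cell cannot be told apart. All signals below are log2 values after subtraction of the array's 75th percentile, and each difference is mPGC-1α minus PGC-1αf/f.

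The arrays had 27025 to 30272 of 59305 non-control spots well above background and 0 saturated spots. PGC-1αf/f replicate 3 stood apart, correlating on average at 0.928 with the remaining arrays, against 0.962 to 0.972 for the others. All PGC-1αf/f arrays lay in slide row 1 and all mPGC-1α arrays in slide row 2, so slide row and group cannot be told apart. The label check gave mixed results. Ppargc1a, which encodes PGC-1α, had signals of 0.19, -0.44 and -1.21 in PGC-1αf/f and 0.57, 0.28 and 0.08 in mPGC-1α replicates 1, 2 and 3. The groups overlapped, and the difference of 0.80 (SE 0.35, limma adjusted p = 0.306) did not pass the test. The lowest value, -1.21, came from PGC-1αf/f replicate 3, and without that array the difference is smaller. Whether this probe reads the overexpressed cassette is not given in the sources used here. All 4 Y-linked genes examined (Ddx3y, Eif2s3y, Kdm5d and Uty) were well above background on 5 arrays but not on mPGC-1α replicate 3, against its label. Xist, the RNA of the inactive X chromosome, was well above background on 3 arrays, namely replicate 2 of each group and mPGC-1α replicate 3. Results are therefore also given without PGC-1αf/f replicate 3 and without mPGC-1α replicate 3.

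To place the measurements beside the DNA these factors read, promoter sequences were taken from RefSeq (GRCm38.p6), which held all 8 genes in 11 entries. The 250 bases before each start site were searched on both strands for an interferon-stimulated response element core (ISRE, written GAAA, any 2 bases, GAAA), an element bound by activated STAT dimers (GAS, TTCNNNGAA) and a composite element of ETS factors and IRFs (GGAA, any 2 bases, GAAA), whose letters can overlap those of the ISRE core. Among all 32851 promoters, 2.98% held the ISRE core, 7.02% the GAS and 2.3% the composite element. Irf1 held a GAS at position -90, Irf8 held a GAS at -171 and another at -153, and Irf2 held all 3 elements, at -247, -241 and -224. No match was found for Irf3, Irf4, Irf5, Irf7 or Irf9 in this window. A match is a description of letters, and its absence says only that these letters are not there. The stretches with matches are shown with those matches in capitals, together with the 80 bases before the start of Irf7, the gene with the largest difference in the family.
Irf1, chr11:53769888-53769967, plus strand: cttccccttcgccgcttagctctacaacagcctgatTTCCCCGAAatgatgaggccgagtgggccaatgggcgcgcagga
Irf2, chr8:46739495-46739574, plus strand: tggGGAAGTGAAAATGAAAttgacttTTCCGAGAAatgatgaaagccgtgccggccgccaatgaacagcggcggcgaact
Irf8, chr8:120736160-120736239, plus strand: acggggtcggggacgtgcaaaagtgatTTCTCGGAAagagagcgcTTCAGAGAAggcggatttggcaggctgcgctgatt
Irf7, chr7:141266425-141266504, minus strand: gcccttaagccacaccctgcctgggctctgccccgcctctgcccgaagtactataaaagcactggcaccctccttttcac

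First, the factors activated by nucleic acid sensing were compared. Irf7, which amplifies the interferon response and is itself induced by interferon, had signals of 1.23, 1.41 and 0.88 in PGC-1αf/f replicates 1, 2 and 3 and of 2.04, 2.33 and 2.39 in mPGC-1α replicates 1, 2 and 3. Every mPGC-1α array was above every PGC-1αf/f array, and PGC-1αf/f replicate 3 was the lowest of all. The group means were 1.18 ± 0.27 and 2.25 ± 0.19 (SD, n = 3 each), a difference of 1.08 with a 95% interval of 0.64 to 1.52 (limma unadjusted p = 0.000657). Of the 25257 probes tested, 810 had a larger log2 difference. The difference was 0.80 within slide column 1 and 0.92 within slide column 2, which each held an array of both groups. It was 0.93 without PGC-1αf/f replicate 3 (limma adjusted p = 0.119) and 1.01 without mPGC-1α replicate 3 (adjusted p = 0.274). With limma array weights, which give less weight to arrays that deviate, the difference was 0.91 and its adjusted p of 0.0244 passed the threshold. In that setting 1100 of 25257 probes passed, against 20 as reported. The weights were 3.60 and 2.23 for replicate 2 of PGC-1αf/f and mPGC-1α, and 0.37 to 1.13 for the other arrays.

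Irf7 was also read by a second, dimmer probe. Its signals were -4.53, -3.63 and -4.32 in PGC-1αf/f and -2.02, -1.83 and -2.84 in mPGC-1α, with no overlap. It was not well above background on any PGC-1αf/f array and was well above it on all 3 mPGC-1α arrays, so its control level is not known. The mPGC-1α mean was 2.68-fold above a substituted control level, a point value without sampling error (limma adjusted p = 0.0987 for the fitted difference). Here the control level was replaced on each array by the higher of the probe's own signal and the lowest signal well above background. The probe passed the filter on dim signals only through the mPGC-1α arrays, so neither this value nor its p-values are support for Irf7.

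In contrast, Irf3, the constitutively present partner of IRF7 in sensing pathways, had signals of 2.34, 2.46 and 2.70 in PGC-1αf/f and 2.41, 2.58 and 2.53 in mPGC-1α. The mPGC-1α values lay inside the range of the PGC-1αf/f values. The difference was 0.004 (SE 0.15) with a 95% interval of -0.34 to 0.35, and its sign turned under every other scaling tried. The second Irf3 probe ranged from -0.72 to -0.19 over all 6 arrays and differed by -0.06 (SE 0.16, limma adjusted p = 0.876). It was -0.20 with no overlap without PGC-1αf/f replicate 1 and -0.04 without mPGC-1α replicate 3, and it turned to 0.07 without PGC-1αf/f replicate 3 and to 0.09 with the slide column as a fixed block.

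Irf5, which acts downstream of MyD88 in Toll-like receptor signalling and drives inflammatory cytokine genes, had signals of 3.07, 3.00 and 3.08 in PGC-1αf/f and 2.94, 2.88 and 2.71 in mPGC-1α. All mPGC-1α values were below all PGC-1αf/f values. The difference of -0.21 (SE 0.13, 95% interval -0.51 to 0.10) did not pass the test (limma adjusted p = 0.433). It was -0.34 under a median shift and -0.13 with the slide column as a fixed block. The groups overlapped under normexp (-0.23) and without normalization between arrays (-0.24). A second Irf5 probe was flagged as an outlier spot on PGC-1αf/f replicates 1 and 2, which left a single control value of 1.25 against 0.73, 0.58 and 0.64 in mPGC-1α. The fitted difference of -0.60 therefore rests on a lone control array whose spread was taken from the other arrays, and without PGC-1αf/f replicate 3 it could not be fitted. With the flagged spots kept, the control values were 0.81, 1.02 and 1.25, the groups still did not overlap, and the difference was -0.38 (SE 0.15, adjusted p = 0.285).

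Next, the factor that carries the signal of the interferon receptor was examined. Irf9, the DNA-binding subunit of ISGF3, had signals of 2.03, 2.09 and 2.00 in PGC-1αf/f and 2.21, 2.21 and 2.27 in mPGC-1α. All mPGC-1α values were above all PGC-1αf/f values, but the difference of 0.19 (SE 0.12, 95% interval -0.09 to 0.47) did not pass the test (limma adjusted p = 0.439). Under a median shift it was 0.06 and the groups overlapped, where the median of all tested probes itself lay at -0.14. On the second Irf9 probe the groups overlapped, with 1.84, 1.90 and 2.22 in PGC-1αf/f and 1.92, 2.10 and 2.28 in mPGC-1α, and the difference was 0.11 (SE 0.17). It was 0.23 with no overlap without PGC-1αf/f replicate 3, 0.21 and 0.07 when mPGC-1α replicate 1 or PGC-1αf/f replicate 2 was left out, 0.04 without PGC-1αf/f replicate 1 and 0.02 without mPGC-1α replicate 3.

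**Figure D1:**
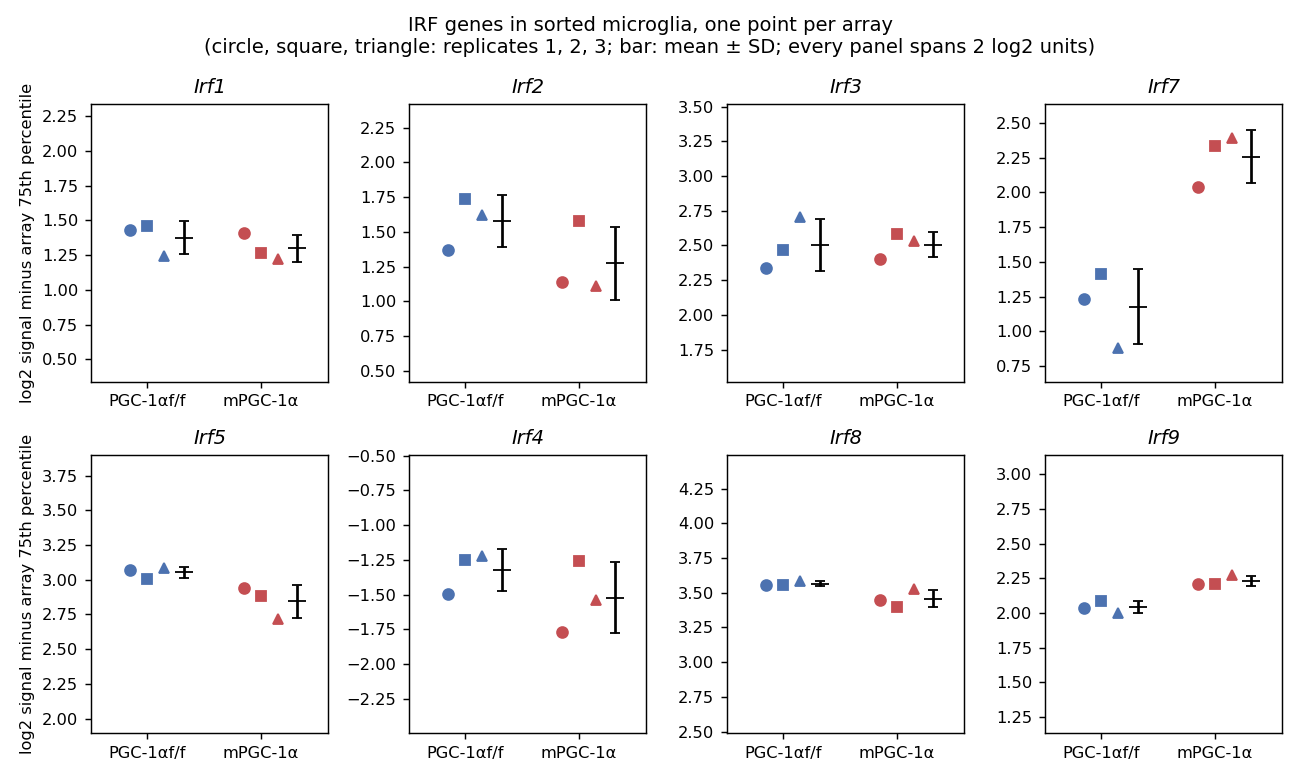
Log2 signal relative to the 75th percentile of its array for the brightest probe of each IRF gene, with circles, squares and triangles for replicates 1, 2 and 3 of PGC-1αf/f (blue) and mPGC-1α (red) and bars for the mean ± SD (n = 3). Every panel spans the same height, and only in the Irf7 panel are the groups far apart, at 0.88 to 1.41 against 2.04 to 2.39.

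Irf1 and Irf2 form an antagonistic pair, with IRF1 an activator induced by interferon-γ and IRF2 mostly a repressor of the same elements. Their promoter stretches with GAS matches are shown above. Irf1 had signals of 1.43, 1.46 and 1.24 in PGC-1αf/f and 1.41, 1.27 and 1.22 in mPGC-1α. The groups overlapped and differed by -0.08 (SE 0.13, 95% interval -0.39 to 0.24). The Irf1 difference was -0.15 without PGC-1αf/f replicate 3 and -0.21 under a median shift, both with no overlap. It was -0.13 when mPGC-1α replicate 1 was left out, and -0.05, -0.04 and -0.04 when PGC-1αf/f replicate 1, PGC-1αf/f replicate 2 or mPGC-1α replicate 3 was. The second Irf1 probe ranged from -3.04 to -1.76 over all arrays, with a difference of -0.22 (SE 0.32) that ran from -0.51 without mPGC-1α replicate 1 to 0.13 without mPGC-1α replicate 3. Irf2 had signals of 1.37, 1.74 and 1.62 in PGC-1αf/f and 1.14, 1.58 and 1.11 in mPGC-1α. Here mPGC-1α replicate 2 lay within the control range and the other two mPGC-1α arrays below it. The Irf2 difference was -0.30 (SE 0.18, 95% interval -0.73 to 0.13, limma adjusted p = 0.425), the most negative of the 8 genes. Without mPGC-1α replicate 2 it was -0.45 with no overlap (limma unadjusted p = 0.0465), and still did not pass (adjusted p from 0.289 to 1 over all alternatives). It was -0.40 with no overlap without PGC-1αf/f replicate 1, and -0.20 with the slide column as a fixed block.

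The lineage factors Irf4 and Irf8 both bind composite elements with PU.1. Irf8, needed for microglial development, had signals of 3.56, 3.56 and 3.58 in PGC-1αf/f and 3.45, 3.40 and 3.52 in mPGC-1α. All mPGC-1α values were below all controls by a small margin, and the difference of -0.11 (SE 0.12, 95% interval -0.39 to 0.17, limma adjusted p = 0.660) did not pass the test. It was -0.23 under quantile normalization, -0.24 under a median shift and -0.26 under normexp, where the groups overlapped. Irf4, known from plasma cells, T cells and alternatively activated macrophages, had signals of -1.49, -1.25 and -1.22 in PGC-1αf/f and -1.77, -1.26 and -1.54 in mPGC-1α. These overlapped, with a difference of -0.20 (SE 0.17, 95% interval -0.61 to 0.21). It was -0.08 without mPGC-1α replicate 1, and -0.33 without mPGC-1α replicate 2, where the groups no longer overlapped, or under a median shift, where they did. The second Irf4 probe was well above background on 2 PGC-1αf/f arrays and 1 mPGC-1α array and was therefore not tested. Its signals were -3.37, -3.31 and -2.99 in PGC-1αf/f and -3.66, -3.68 and -3.51 in mPGC-1α.

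**Figure D2:**
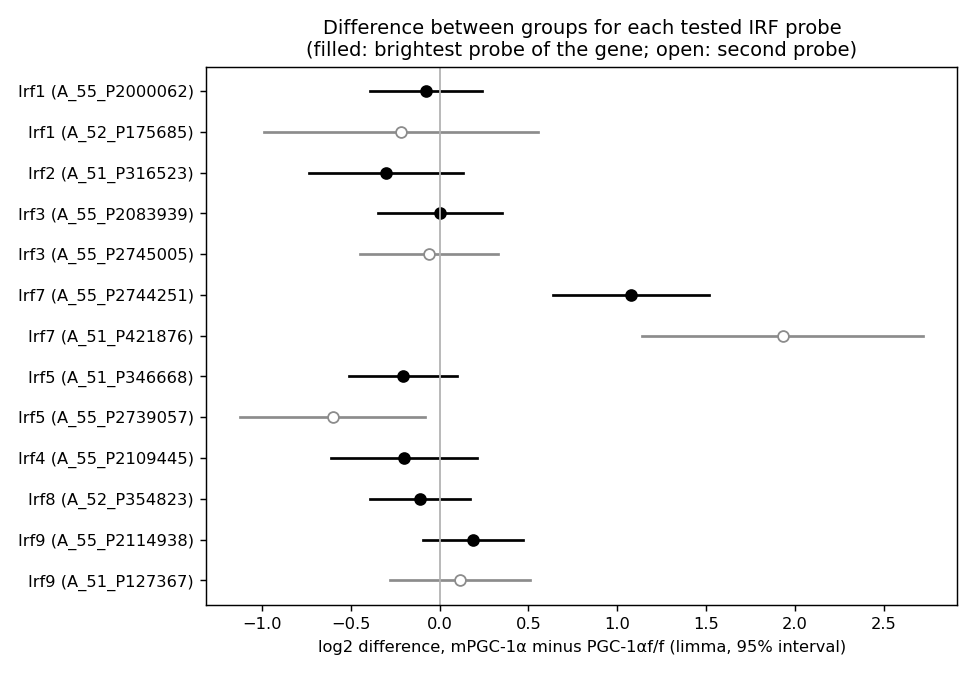
Log2 difference (mPGC-1α minus PGC-1αf/f) with its 95% interval from limma for each of the 13 tested IRF probes, filled for the brightest probe of a gene and open for the second. The brightest Irf7 probe lies to the right of 0 with its interval, and 10 of the other intervals cross 0. The second Irf7 probe, dim on every PGC-1αf/f array, and the second Irf5 probe, with 1 control value, are drawn as fitted and are no usable tests.

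Counted over the family, 0 of 13 tested probes passed an adjusted p of 0.05 by limma, as did 0.0792% of all tested probes. At an unadjusted p under 0.05 there were 3 of 13 probes, both of Irf7 higher and the second of Irf5 lower, while 16.7% of all tested probes passed, 7.53% higher and 9.21% lower. Nothing is read from this count, since only the brightest Irf7 probe of the 3 was well above background in both groups with values on all arrays. That split depended on the scaling, with 1901 probes higher and 2325 lower as reported, 1298 and 3089 under a median shift, and 1247 and 513 without normalization between arrays. On the brightest probe of each gene, 1 of 8 genes was higher at that level, against 8.16% of all 12302 measured genes, and 0 of 8 were lower, against 5.71%. The groups did not overlap for Irf7 and Irf9, which were higher, and for Irf5 and Irf8, which were lower. These were 4 of 8 genes, and over all measured genes 22.9% had no overlap, 12.2% higher and 10.8% lower. The median difference of the 8 genes was -0.09, beside 0.03 for all measured genes and -0.003 for all tested probes. The family held 3 positive and 5 negative differences, and 9 of 19 processing alternatives turned the sign of Irf3.

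Of the 6 genes read by 2 probes, only Irf1, Irf3 and Irf9 had both well above background on all arrays with all values present. Their probes gave -0.08 and -0.22 for Irf1, 0.19 and 0.11 for Irf9, and 0.004 and -0.06 for Irf3. The second Irf1 probe turned to 0.13 without mPGC-1α replicate 3, and the second Irf9 probe to -0.02 under a median shift. Across the 6 arrays the pattern of Irf7 was the farthest from every other member. The root mean square difference between array profiles centred on their means was 0.47 log2 units from Irf7 to Irf9 and 0.73 from Irf7 to Irf2, with its other pairs in between, while the pairs without Irf7 lay between 0.103 and 0.311. The closest pair was Irf2 and Irf4. The points share arrays, so this is a description.

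The same measure was used to name the genes whose profiles over the 6 arrays were most like each member, among 11564 candidates well above background on all arrays. For Irf7 these were Helz2, an interferon-inducible helicase (0.074 log2 units away, with a difference of 1.16 between groups), and Clec4a1, a myeloid C-type lectin receptor (0.109 away, difference 0.90). Irf8 lay closest to Msl3 (0.013) and Ifnar2, a chain of the type I interferon receptor (0.015). Irf5 lay closest to Ptbp2 (0.021) and Mrpl24 (0.025), Irf9 to Ube2v1 and Ubxn1 (both 0.025), and Irf3 to Slc25a25 (0.021) and Med15 (0.030). Irf1 lay closest to Thap11 (0.028) and Hsd17b4 (0.030), Irf2 to Gmip (0.050) and Pex14 (0.069), and Irf4 to Rabep2 (0.040) and Kbtbd7 (0.041). A profile with a small spread has many near neighbours, so these distances are not comparable between members.

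**Figure D3:**
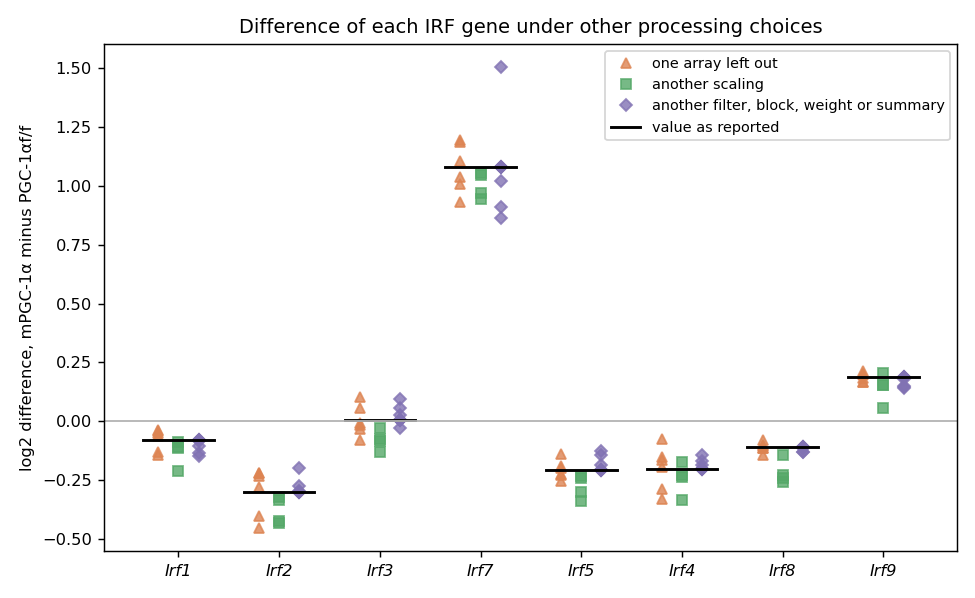
Log2 difference (mPGC-1α minus PGC-1αf/f) of the brightest probe of each IRF gene, or of the mean over its probes, under the 19 alternatives, with a black line for the value as reported. Triangles leave out 1 array, squares use another scaling and diamonds another filter, block, weight or summary. The brightest Irf7 probe stays between 0.86 and 1.20, the point at 1.50 averages in the Irf7 probe that was dim on every PGC-1αf/f array, Irf3 falls on both sides of 0, and the other genes keep their sign.

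To determine whether the ligands and receptors upstream of the family differed, 7 lists of pathway genes were examined on the same fit. None of the 7 interferon ligand genes listed (Ifnb1, Ifng and members of the α, κ and ε types) was well above background on all arrays of a group, so none was tested. Of 12 receptor and JAK-STAT genes, 10 were measured and 0 passed an unadjusted p of 0.05, while 8.16% of all measured genes passed higher and 5.71% lower. Among those well above background on every array, Stat2 (0.33, SE 0.16), a partner of IRF9 in ISGF3, was the highest, and the lowest were the kinase Tyk2 (-0.38, SE 0.22) and the receptor chain Ifnar1 (-0.11, SE 0.15). All 3 mPGC-1α arrays had Stat2 signals (0.97, 1.31 and 1.19) above those of PGC-1αf/f (0.63, 0.90 and 0.95). With no overlap, 1 gene of this list was higher and 2 were lower (Tyk2 and Ifnar2), against 12.2% and 10.8% of all measured genes. The list's median was 0.08 and turned to -0.06 under a median shift and -0.04 under quantile normalization, and was -0.0002 without mPGC-1α replicate 3. Ifnlr1, a type III receptor chain named here after its values were seen, had signals of -3.14, -2.26 and -6.19 in PGC-1αf/f and -2.52, -1.67 and -1.89 in mPGC-1α, but was well above background on only 4 arrays, and nothing is read from its difference.

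Of 22 sensors, adaptors and kinases that act upstream of IRF3, IRF5 and IRF7, 17 were measured and 0 passed at that level, against the same 8.16% and 5.71%. Shares of this size bring few calls in lists so short, so nothing is read from either count. Their median was -0.15, but it was -0.07 without PGC-1αf/f replicate 3 and -0.05 without mPGC-1α replicate 1, and -0.29 under the median shift that moved all probes to -0.14. The RNA helicases Dhx58 (0.50, SE 0.23) and Ifih1 (0.34, SE 0.16), both of which are themselves interferon-inducible, were the highest. The kinases Tbk1 (-0.30, SE 0.13), which phosphorylates IRF3 and IRF7, and Irak4 (-0.24, SE 0.19) were the lowest. Tbk1 signals were 0.61, 0.62 and 0.60 in PGC-1αf/f and 0.44, 0.29 and 0.20 in mPGC-1α, without overlap (limma unadjusted p = 0.0515, adjusted p = 0.302).

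Of 13 DNA-binding partners and cofactors, 11 were measured, of which 1 was higher and 1 lower by the unadjusted p, with a median of 0.08 that turned to -0.05 under a median shift. Ifi35, an interferon-induced protein, was higher by 0.39 (SE 0.15, adjusted p = 0.282 by limma), and Irf2bp1, a corepressor of IRF2, was lower, with a difference of -0.56 (SE 0.20, adjusted p = 0.260). The AP-1 factors Batf (0.49, SE 0.22) and Batf3 (-0.15, SE 0.19), which pair with IRF4 and IRF8, did not pass. The background was 8.16% of measured genes higher and 5.71% lower. Without mPGC-1α replicate 3, 0 genes of this list passed at that level in either direction and the median was -0.03, while 5.06% of all genes were higher and 4.57% lower. Without PGC-1αf/f replicate 3, 1 gene was higher and 0 lower with a median of 0.09, against 6.23% and 3.66% of all genes.

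Moreover, genes known to be induced through these elements were compared as the output of the pathway. Of 24 target genes, 20 were measured, 19 had a positive difference, and 14 were higher by the unadjusted p, with 0 lower. The background was 8.16% of measured genes higher and 5.71% lower. None passed an adjusted p of 0.05 by limma, nor did any gene of the other lists, where 0.065% of all measured genes did. The median was 1.08, beside 0.03 for all measured genes, and 14 of 20 genes were higher with no overlap between groups, against 12.2% of all measured genes. Without PGC-1αf/f replicate 3 the count was 13 and the median 0.83, against 6.23% of all genes higher. Without mPGC-1α replicate 3 the count was 8 and the median 0.92, against 5.06% of all genes higher. The lists were chosen with earlier results of these data known, so the higher target signals are no independent support for Irf7. Oas2, named here after its values were seen, was well above background on 2 of 3 PGC-1αf/f arrays and so passed the filter through the mPGC-1α arrays. Over the 19 targets well above background on all arrays, 13 were higher by the unadjusted p and the median was 1.06. Neutrophil and monocyte markers, described below, were also higher in mPGC-1α with median differences of 1.27 and 1.41, and their part in this list was not tested.

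Oasl1, an OAS family protein reported to restrain translation of Irf7 mRNA, had the largest difference of the targets. Its signals were -1.93, -1.59 and -2.43 in PGC-1αf/f and -0.46, 0.11 and 0.46 in mPGC-1α, without overlap, and the difference was 2.02 (SE 0.30, limma adjusted p = 0.0784). Rsad2, which encodes the antiviral enzyme viperin, had signals of 0.36, 0.37 and -1.11 in PGC-1αf/f and 0.87, 1.21 and 2.04 in mPGC-1α. Its difference was 1.50 (SE 0.47, adjusted p = 0.222), with PGC-1αf/f replicate 3 again the lowest array. At the other end, the immunoproteasome subunits Psmb9 (-0.01, SE 0.16) and Psmb8 (0.05, SE 0.17) overlapped between groups.

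Of the 10 feedback inhibitors, 9 were measured, of which 3 were higher by the unadjusted p and 0 lower, against 8.16% and 5.71% of all measured genes, with a median of 0.24. The count was 3 and the median 0.17 without PGC-1αf/f replicate 3, and 2 and 0.14 without mPGC-1α replicate 3, where 6.23% and 5.06% of all genes were higher. The median was 0.36 without mPGC-1α replicate 1 and 0.10 under a median shift. Isg15, an interferon-induced ubiquitin-like protein, had signals of 0.10, 0.28 and -0.44 in PGC-1αf/f and 0.85, 1.61 and 2.02 in mPGC-1α. The Isg15 difference was 1.51 (SE 0.33, limma adjusted p = 0.135). Socs3, an inhibitor of JAK signalling, was higher by 0.94 (SE 0.29, adjusted p = 0.216). Usp18, which blocks the type I interferon receptor and was the third gene of this list past the unadjusted threshold, is named after its values were seen, with a difference of 0.81 (SE 0.14, adjusted p = 0.0970). The lowest were Pias1 (-0.08, SE 0.19) and the deubiquitinase Otud5 (-0.05, SE 0.13), which did not pass.

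The ISRE core was present in 8 of the 17 measured target genes that had a promoter entry (47.1%) and in 3 of 8 feedback inhibitors (37.5%), beside 2.98% of all promoters. Of the 8 targets with the element, 7 were higher at an unadjusted p under 0.05, and of the 9 without it, 5 were, beside 8.16% of all measured genes. Of the feedback inhibitors, 1 of 3 with the element and 1 of 5 without it were higher at that level. The target Gbp3 and the feedback inhibitors Trim30a and Socs1 held the element and did not pass. The targets were listed because such elements are known in them, so their share is a description. Examples are shown with the matches of either strand in capitals, to set beside the Irf7 stretch above, which held none. All of these examples come from genes that were higher at that level.
Isg15, chr4:156200846-156200925, minus strand: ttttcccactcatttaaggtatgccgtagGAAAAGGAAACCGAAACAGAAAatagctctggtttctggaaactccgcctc
Rsad2, chr12:26456528-26456607, minus strand: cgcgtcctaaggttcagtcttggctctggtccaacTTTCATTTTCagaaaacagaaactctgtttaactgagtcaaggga
Ifit1, chr19:34640759-34640838, plus strand: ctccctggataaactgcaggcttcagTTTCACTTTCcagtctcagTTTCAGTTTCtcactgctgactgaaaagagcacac

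**Figure D4:**
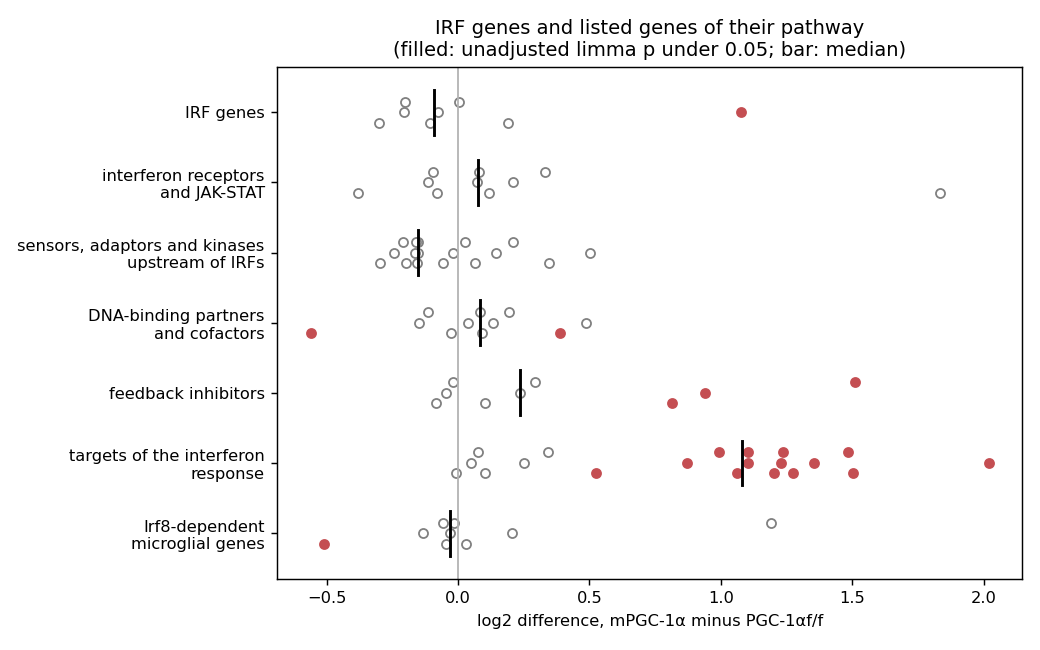
Log2 difference (mPGC-1α minus PGC-1αf/f) of the brightest probe of each measured IRF gene and of each measured gene in 6 pathway lists, filled where the unadjusted limma p was under 0.05, with a bar at each median. The targets spread around 1.08 with 14 of 20 filled, while the receptor and sensor lists lie near 0 with none filled; the receptor point farthest to the right is Ifnlr1, which was dim on part of the arrays and is drawn as fitted.

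Finally, 12 microglial genes described as lowered or altered by loss of Irf8 were compared. Of these, 9 were measured, of which 0 were higher and 1 lower by the unadjusted p, against 8.16% and 5.71% of all measured genes, with a median of -0.03. The sign of that median was not stable, at 0.10 without PGC-1αf/f replicate 1 and 0.04 without mPGC-1α replicate 2. It was -0.10 without replicate 3 of either group and -0.16 under a median shift. The 1 gene lower was Cx3cr1, with signals of 4.53, 4.28 and 4.24 in PGC-1αf/f and 3.85, 3.95 and 3.73 in mPGC-1α. All mPGC-1α values of Cx3cr1 were below all controls, and the difference was -0.51 (SE 0.14, limma adjusted p = 0.194). This is also the locus that carries Cre in the mPGC-1α mice. The highest was Cybb, the catalytic subunit of the phagocyte NADPH oxidase, with 1.19 (SE 0.62), where PGC-1αf/f replicate 3 lay at -2.46 and the groups overlapped. Apoe (0.20, SE 0.19) and Siglech (-0.13, SE 0.16) overlapped as well.

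Markers of the sorted cells and of other cell types were summed on each array, with no test. All 9 microglial markers were well above background on all 6 arrays, with a summed linear signal, relative to the 75th percentile, of 150 to 176 in PGC-1αf/f and 132 to 153 in mPGC-1α. The 9 neutrophil markers summed to 28.8 to 115 in PGC-1αf/f and 118 to 142 in mPGC-1α, and the 7 monocyte markers to 6.75 to 41.8 and 42.8 to 50.6. In both lists PGC-1αf/f replicate 3 was the lowest array, as it was for Irf7, and 8 of 9 and 7 of 7 markers had a higher mean in mPGC-1α. Without that array the median log2 difference of the neutrophil markers was 0.33 in place of 1.27, and that of the monocyte markers 0.37 in place of 1.41, while the Irf7 difference was 0.93. The part of these cells in the results for Irf7, the targets and the feedback inhibitors was not tested.

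For the cell types that use Irf4 and Irf8 outside the microglia, the B and plasma cell markers summed to 6.71 to 13.6 in PGC-1αf/f and 9.94 to 15.4 in mPGC-1α, with Cd79a and Pax5 not well above background on any array. Dendritic cell markers summed to 0.573 to 0.890 and 0.887 to 1.13, with Clec9a, Xcr1 and Zbtb46 not well above background on any array. T and NK cell markers summed to 1.19 to 6.09 and 4.47 to 8.57, with Ncr1 likewise dim. Their median log2 difference was 0.35 without PGC-1αf/f replicate 3, in place of 0.93. For the B and plasma cell markers it was 0.18 in place of 0.68. Border macrophage markers summed to 10.1 to 12 and 10.7 to 18.4. Astrocyte, endothelial and neuron lists overlapped between groups, whereas oligodendrocyte markers summed to 14.0 to 16.7 in PGC-1αf/f and 9.13 to 11.8 in mPGC-1α. Without PGC-1αf/f replicate 3 the median log2 difference of the dendritic cell markers was 0.62 in place of 0.82. That of the border macrophage markers was 0.26 in place of 0.31. Only 2 of the 7 dendritic cell markers were well above background on all arrays. The part of these cells in the differences of Irf4, Irf7 and Irf8 was not tested.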

How the data were processed

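Total RNA of sorted microglia was amplified, labelled with Cy5 and hybridised to 1-colour Agilent arrays by the authors. Per the file headers, the deposited intensity of each spot is the processed signal of Agilent Feature Extraction 11.5.1.1 after background subtraction, and the deposited series-wide table held the same values. The methods name GeneSpring for normalization and no test per gene.

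Control and outlier-flagged spots were left out. Each array's 75th percentile was subtracted from its log2 intensity, and spots of a probe were averaged. Probes well above background (at least 0.5 of their spots) on all arrays of a group were kept (25333 of 56605), and 25257 gave a p-value. Names came from RefSeq (GRCm38.p6) through transcript accessions, with a single symbol for 33767 probes. The brightest probe with values on all 6 arrays stood for a gene. limma 3.58.1 (lmFit, eBayes, two-sided, Benjamini-Hochberg) was used in R 4.3.3 with data.table version 1.17.8, after testing on simulated data. Figures used Python 3.11.15, matplotlib 3.10.9, pandas 2.3.3 and numpy 2.4.6. The number of arrays limits the precision.

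Members, lists and tests were chosen with earlier results of these data known. Named were all IRF genes, Ppargc1a and Cx3cr1, the 2 highest and 2 lowest genes of each list among those well above background on all arrays, and the 2 genes nearest each member, except for items not reported here. The Y-linked genes and Xist were chosen after the data were seen, as were 2 of the 19 alternatives, the slide column as a fixed block and keeping outlier-flagged spots. The others were quantile normalization, a median shift, normexp (offset 50), the deposited table without normalization, no filter, a filter on all 6 arrays, a replicate block, weights per array, a robust eBayes fit with an intensity trend, a random block for slide column, averaging the probes of each gene, and leaving out each array.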

Additional observations from a re-analysis of the deposited data

How the results depend on the processing

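Of the IRF probes, 0 passed an adjusted p of 0.05 as reported, 1 with the deposited table without normalization, 2 with array weights and 1 with a random block for slide column, and 0 when any array was left out. The single calls were the dim Irf7 probe, which is not above background in any control and is no usable test. The brightest Irf7 probe passed with array weights (adjusted p = 0.0244) but not in the unnormalized table (0.372) or with the random block (0.0526). The count at an unadjusted p under 0.05 was 3 as reported, 1 when probes were averaged per gene (which counts genes) and 2 to 3 when an array was left out. Genes without overlap between groups numbered 4 as reported, 2 under normexp, 1 in the unnormalized table and 4 to 6 with an array left out. Genes of the pathway lists past the adjusted threshold numbered 0 as reported, 5 in the unnormalized table, 9 with array weights and 2 with a random block for slide column, and 0 with any array left out. Over all tested probes, 20 passed as reported, 456 in the unnormalized table, 1100 with array weights, 138 with the random block, 40 with the slide column as a fixed block, 11 under each other scaling, 9 without a filter, 4 with the filter on all 6 arrays and 0 to 24 with an array left out. The Irf3 difference turned to -0.0735 under quantile normalization, -0.129 under a median shift, -0.0834 under normexp, -0.0304 in the unnormalized table and -0.0274 as a mean over probes, and ran from -0.0779 to 0.105 with an array left out. The cause of these shifts was not tested. Same-numbered arrays correlated in their deviations from the group means at 0.139, 0.127 and 0.0187, and every PGC-1αf/f array correlated best with its own number. With so few arrays these values do not settle whether the numbers pair the samples. With the replicate block the Irf7 difference was 1.08 (limma adjusted p = 0.158), 0 IRF probes and 0 probes overall passed the adjusted threshold, and 2 IRF probes passed the unadjusted one. Irf7 was higher at an unadjusted p under 0.05 in 19 of 19 alternatives, from 0.86 with the slide column as a fixed block to 1.20 without PGC-1αf/f replicate 2, apart from 1.50 as a mean that takes in the dim probe, with adjusted p from 0.0244 to 0.372. Few arrays and dim second probes of Irf4 and Irf7 limit the precision.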
